A study of Mus musculus with 4 samples.

Results

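Conventional dendritic cells take up antigen and present it to T cells, and 10 genes that mark these cells or their states were followed here in MC38 tumours. The genes were listed by name rather than by a threshold on a measured value, though with earlier results of these data known, and all 10 were found among the 54115 genes with a transcript in the files. MC38 is a mouse colon adenocarcinoma cell line that was injected into mice to form primary tumours. One group of tumours came from mice given 10 daily intraperitoneal injections of saline, and the other from mice given 10 daily injections of vanoxerine, a dopamine transporter inhibitor, at 25 mg/kg. Each group has 2 RNA-seq libraries of whole snap-frozen tumour, with 67289273 to 75748162 estimated reads per library. The labels give neither the strain, sex and age of the mice nor whether each library is a mouse of its own. The spread between the 2 libraries of a group could thus be technical. A p-value here sets the difference against that spread, which the test estimates for each gene with information shared across all genes tested.

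Conventional dendritic cells arise from bone marrow precursors that need the cytokine FLT3 ligand, which acts on the receptor encoded by Flt3. They fall into type 1 cells (cDC1), which cross-present antigen to CD8 T cells and depend on the transcription factor BATF3, and type 2 cells (cDC2), which mainly present to CD4 T cells. On maturation both types gain the chemokine receptor CCR7, which guides them to lymph nodes. Several of the 10 genes are also carried by other cells: endothelial cells express Zbtb46, activated T cells Batf3, naive T cells and B cells Ccr7, macrophages Ccl22 and Clec10a, and many carcinoma cells Fscn1. In RNA of a whole tumour, more cells of a type and more RNA per cell cannot be told apart.

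The comparison asked how the transcripts of MC38 tumours differ after vanoxerine. Of the 10 genes, 7 were higher in the vanoxerine tumours, 1 was lower and 2 did not pass the test. The largest difference was that of the cDC1 chemokine receptor gene Xcr1, at 14.25 times its saline level, and the smallest called was the 0.852-fold level of Fscn1. Among all 18758 genes tested 36.9% were called, with 21.0% higher and 15.9% lower in vanoxerine. The median log2 fold change was 1.75 over the 10 genes and -0.00965 over all genes tested. Calls are from edgeR's quasi-likelihood test at a Benjamini-Hochberg adjusted p under 0.05 over all genes tested, and levels are CPM, which are reads scaled to library size and TMM factor. The CPM of the 2 groups did not overlap for 9 of the 10 genes, 8 of them higher in vanoxerine, where this held for 70.7% of all genes tested and 35.8% in the higher direction. With lengths taken into account 6 of the 10 were called, against 23.0% of all genes with an average transcript length offset, 26.5% with log2(TPM + 1) and 26.1% with log2(TPM + 0.1). Without vanoxerine replicate 2, 5 were called against 15.2% of all genes, with Batf3, Clec9a and Fscn1 lost, and without saline replicate 2, 9 were called against 47.7%, with Cd209a gained.

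**Figure D1:**
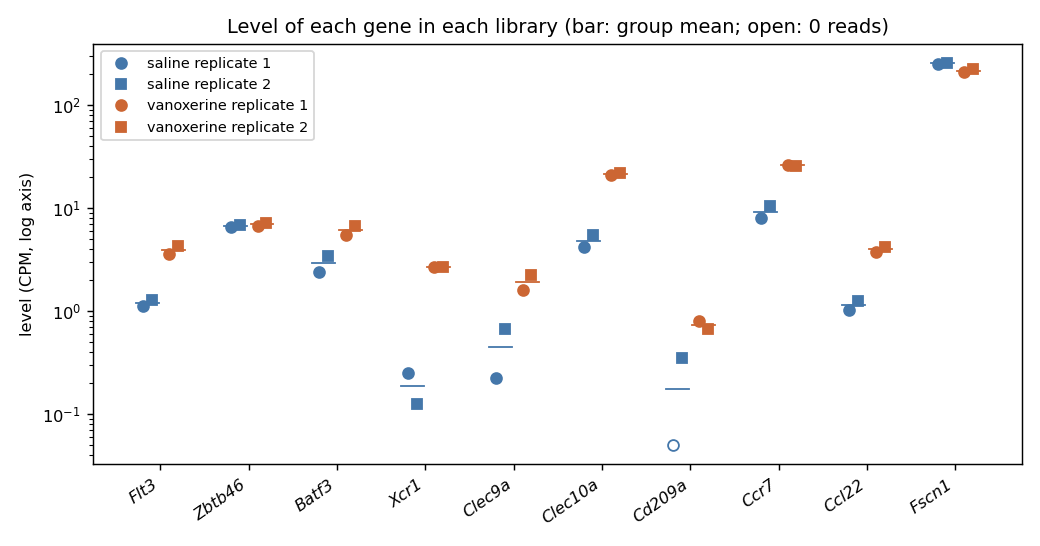
Level in CPM (log axis) of each of the 10 genes in each library, with saline in blue, vanoxerine in orange, circles for replicate 1, squares for replicate 2 and a bar at the mean of the 2 libraries. Xcr1 stood at 0.249 and 0.126 CPM in saline and at 2.66 and 2.69 CPM in vanoxerine, Zbtb46 overlapped between the groups, and the open circle marks 0 reads of Cd209a, drawn at the foot of the axis.

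Flt3 encodes the receptor tyrosine kinase for FLT3 ligand and lies on chromosome 5 (147330741 to 147400489, reverse strand, GRCm38). It stood at 1.13 and 1.29 CPM in the saline libraries and at 3.58 and 4.25 CPM in the vanoxerine libraries. Both vanoxerine libraries lay above both saline libraries. Flt3 rose by 1.70 ± 0.24 (SE) on the log2 scale, or 3.24-fold (edgeR adjusted p = 0.00331), and it stayed called when any 1 library was left out. The values rest on 86 and 92 reads in saline and 248 and 280 in vanoxerine.

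The ligand did not move with the receptor in the count test. Flt3l, which encodes FLT3 ligand, was at 25.65 and 27.7 CPM in saline and at 24.5 and 24.9 CPM in vanoxerine (edgeR log2 fold change -0.11 ± 0.076, adjusted p = 0.325). Per length the same gene was higher, at 23.2 and 20.3 TPM in saline and 41.55 and 47.8 TPM in vanoxerine. TPM divides reads by the length of the transcript to which Salmon assigned them, and Flt3l was called higher with an average transcript length offset (log2 fold change 0.80, adjusted p = 0.0144) and with log2(TPM + 1) (1.0, adjusted p = 0.0112). Csf2, the gene of the growth factor GM-CSF, was at 1.099 and 1.57 CPM in saline and 1.39 and 1.20 CPM in vanoxerine and was not called.

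The 2 transcription factor genes of the list went different ways. Batf3 encodes the factor on which cDC1 development depends (chromosome 1, 191097847 to 191108945, forward strand). It was at 2.41 and 3.40 CPM in saline and at 5.52 and 6.74 CPM in vanoxerine. The groups did not overlap, although the libraries of each group differed visibly from each other. Batf3 rose by 1.08 ± 0.23 on the log2 scale, or 2.11-fold (edgeR adjusted p = 0.0152), a call that was lost without vanoxerine replicate 2 (0.94, adjusted p = 0.114). Zbtb46, whose factor marks committed cells of the conventional lineage, lies on chromosome 2 (181387762 to 181459426, reverse strand). It was at 6.49 and 6.81 CPM in saline and at 6.75 and 7.135 CPM in vanoxerine, so the groups overlapped. Its log2 fold change of 0.062 ± 0.14 was not called (edgeR adjusted p = 0.765), and its sign turned with upper-quartile factors (-0.072) and with the length offset (-0.035).

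Other genes of conventional dendritic cell development and identity were called higher in 7 of 12 and lower in 0, and their median change was 0.65 on the log2 scale. Csf2rb, the shared signalling chain of the GM-CSF, IL-3 and IL-5 receptors, went from 66.3 and 70.8 CPM to 170.2 and 173.5 CPM (1.33 ± 0.053). Irf8, a factor needed for cDC1, went from 194 and 194.5 CPM to 364.5 and 366 CPM (0.91 ± 0.040). Spi1, the gene of the myeloid factor PU.1, rose by 1.05 ± 0.060. Those 3 genes are also used by macrophages and monocytes. The 5 that were not called were Id2 (0.017 ± 0.056), Nfil3 (0.016 ± 0.047), Relb (0.13 ± 0.062), Dpp4 (0.19 ± 0.15) and Bcl11a (-0.53 ± 0.24).

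Xcr1 and Clec9a encode receptors of cDC1. XCR1 binds the chemokine XCL1, which activated CD8 T cells and NK cells release, and CLEC9A (DNGR-1) recognises F-actin exposed by dead cells. The stretches from 250 bases before to 50 bases after the start of both genes are given next to that of the chemokine gene Ccl22, so that the promoters of 3 called genes from both the cDC1 and the mature group can be read. They are from RefSeq, which has such an entry for 8 of the 10 genes. Capitals mark matches to the motifs searched on both strands.
Xcr1 (GRCm38.p6, chr9:123861980-123862279, reverse strand): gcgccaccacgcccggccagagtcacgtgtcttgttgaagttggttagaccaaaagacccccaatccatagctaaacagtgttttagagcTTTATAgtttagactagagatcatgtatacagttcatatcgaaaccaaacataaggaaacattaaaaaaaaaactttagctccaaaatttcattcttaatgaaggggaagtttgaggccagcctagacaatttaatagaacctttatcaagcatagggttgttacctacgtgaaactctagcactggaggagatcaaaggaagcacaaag
Clec9a (GRCm38.p6, chr6:129408612-129408911, forward strand): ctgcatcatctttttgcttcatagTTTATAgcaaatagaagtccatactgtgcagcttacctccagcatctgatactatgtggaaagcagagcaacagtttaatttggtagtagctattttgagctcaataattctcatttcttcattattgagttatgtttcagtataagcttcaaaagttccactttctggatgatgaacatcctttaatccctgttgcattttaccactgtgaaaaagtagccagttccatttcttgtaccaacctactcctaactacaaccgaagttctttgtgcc
Ccl22 (GRCm38.p6, chr8:94745434-94745733, forward strand): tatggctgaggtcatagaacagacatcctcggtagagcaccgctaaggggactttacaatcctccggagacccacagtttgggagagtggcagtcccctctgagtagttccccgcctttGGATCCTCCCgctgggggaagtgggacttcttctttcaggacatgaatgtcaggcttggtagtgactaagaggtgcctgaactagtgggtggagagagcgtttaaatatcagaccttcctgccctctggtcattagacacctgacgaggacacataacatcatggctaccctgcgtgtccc
The motifs were AP-1 (TGANTCA), an IRF element (GAAA and GAAA with 2 bases between), a PU.1-IRF composite (GGAA and GAAA with 2 bases between), NF-kB (GGGA and CC with 4 bases between) and the TATA box (TATAAA). Each of the 3 sequences held 1 match, so that none overlapped. Xcr1 and Clec9a each held a single TATAAA match on the opposite strand, 160 and 226 bases before the start, a motif found in 13.6% of 32851 promoters. Ccl22 held 1 NF-kB match on the opposite strand, 131 bases before the RefSeq start, and 20.7% of promoters held one. An AP-1 match was found in Zbtb46 alone among the 8 (7.81% of promoters), and a PU.1-IRF match in Cd209a alone (2.72% of promoters). The Zbtb46 window (181424339 to 181424638) lies well inside the gene, whose annotated start on the reverse strand is at 181459426. The Batf3 window (191098164 to 191098463) also lies inside its gene, which starts at 191097847. For Ccl22 (window 94745434 to 94745733) the RefSeq start lies downstream of the annotated gene start at 94745590. Its NF-kB match is thus nearer to the annotated start than to the RefSeq start. An IRF match, found in 3.44% of promoters, was in none of the 8. Fscn1 held TATAAA on its own strand, 31 bases before the start, and Flt3 and Batf3 held none of the 5 motifs in this window.

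Xcr1 (chromosome 9, 123852315 to 123862029, reverse strand) was at 0.249 and 0.126 CPM in saline and at 2.66 and 2.69 CPM in vanoxerine. In reads these are 19 and 9 against 184 and 177, so the saline level is set by few reads. The groups were far apart, and the vanoxerine libraries were nearly equal. Xcr1 rose by 3.81 ± 0.43 on the log2 scale (edgeR adjusted p = 0.00129), the 107th highest log2 fold change of the 18758 genes tested, and it stayed called under each of 17 alternatives. Of those alternatives, the threshold of 0.1 reads the main fit more loosely, so no call could be lost there. Only 1 saline library reached the 0.143 CPM that the low-count filter asks for in at least 2 libraries, as was also true of Cd209a. Xcl1, the gene of its ligand, was at 10.9 and 15.2 CPM in saline and at 9.39 and 10.25 CPM in vanoxerine (log2 fold change -0.41 ± 0.17, edgeR adjusted p = 0.119), and was called lower without saline replicate 1 (-0.63, adjusted p = 2.48e-04).

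Clec9a (chromosome 6, 129408862 to 129424763, forward strand) was at 0.222 and 0.674 CPM in saline and at 1.62 and 2.25 CPM in vanoxerine. Both vanoxerine libraries were above both saline libraries, and the saline libraries themselves differed more than the vanoxerine ones in relative terms, with 17 and 48 reads. It rose by 2.11 ± 0.58 on the log2 scale, or 4.31-fold (edgeR adjusted p = 0.0333). The call was lost without vanoxerine replicate 1 (2.34, adjusted p = 0.0762) and without vanoxerine replicate 2 (1.86, adjusted p = 0.176). The main transcript, Clec9a-201, stood at 0.0592 and 0.177 TPM in saline and at 0.451 and 0.535 TPM in vanoxerine. A short transcript of 446 bases, Clec9a-204, took 13.1 and 8.4 reads in vanoxerine and 0 in saline, and with its small length it made up 0.892 and 0.597 TPM of the vanoxerine gene totals of 1.34 and 1.64 TPM. The gene stood 12.6 times higher in vanoxerine in TPM, against 4.31 times in CPM. Exons of Clec9a share 184 bases with a transcript of the neighbouring gene Clec1b on the same strand, and reads from there cannot be told apart. Clec1b was at 0.432 and 0.463 CPM in saline and at 0.549 and 0.653 CPM in vanoxerine and was not called.

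Other cDC1 markers were called higher in 8 of 11 and lower in 0, and the median of their log2 fold changes was 1.87. That median was 0.66 where genes under a mean of 1 CPM were left out, 0.48 with log2(TPM + 1) and 2.36 with the length offset. Of the 8 called, Gcsam had 8 and 0 reads in saline and 77 and 72 in vanoxerine. Snx22 had 8 and 10 reads against 63 and 43. Neither would have passed the low-count filter on the saline libraries alone. Wdfy4, which is needed for cross-presentation, went from 17.4 and 18.4 CPM to 64.4 and 65.99 CPM (1.87 ± 0.064). Rab7b, a gene of endosomal traffic, rose by 2.45 ± 0.10, and Naaa, which encodes a lipid amidase, by 0.84 ± 0.049. Rab7b was at 22.7 and 27.7 CPM in saline and at 142.2 and 133.1 CPM in vanoxerine. Wdfy4, Rab7b and Naaa stood well above Xcr1 and Clec9a in every library, both in CPM and per length in TPM. How much of their change came from cDC1 or from other cells was not tested. Cadm1, an adhesion molecule gene, went from 5.80 and 3.27 CPM to 44.3 and 46.5 CPM, although mast cells also express it. Tlr3, Itgae and Cd24a were not called, and Tlr3 stood at 35.6 and 27.3 CPM in saline and 35.45 and 31.4 CPM in vanoxerine.

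Clec10a and Cd209a encode C-type lectins used as cDC2 markers. CLEC10A (CD301a) binds galactose-type sugars, and its gene lies on chromosome 11 (70156197 to 70170834, forward strand). It was at 4.15 and 5.49 CPM in saline and at 20.8 and 21.7 CPM in vanoxerine. The distance between the groups was many times that within them. Clec10a rose by 2.14 ± 0.15 on the log2 scale, or 4.41-fold (edgeR adjusted p = 2.28e-04), the smallest adjusted p of the 10 genes, and it stayed called under each of 17 alternatives. Clec10a-202 held 295.0 and 311.1 reads in saline and 1031 and 960.1 in vanoxerine. Clec10a-201 was given 0 reads in saline and 304.5 and 337.6 in vanoxerine.

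**Figure D2:**
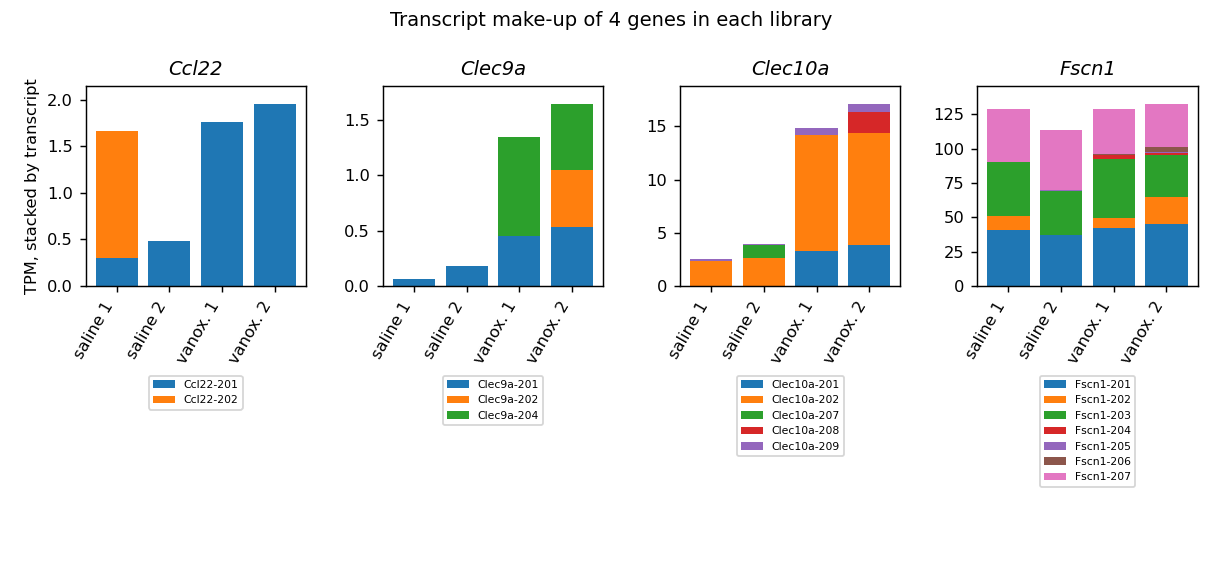
TPM of 4 of the genes in each library, stacked by transcript, with every axis starting at 0. Saline replicate 1 holds 1.36 TPM of Ccl22-202, absent from the other libraries, and Clec9a-204 is seen in the vanoxerine libraries only.

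Clec10a has a close neighbour, Mgl2, on the same chromosome, and 14.8% of the 31-base words of Clec10a also occur in transcripts of other genes, most of them in Mgl2. The longest run shared by the coding parts of Clec10a-202 and Mgl2-201 is 183 bases. It is shown with 30 bases on each side to make plain where reads cannot be assigned with certainty, with capitals at the 5 of 243 bases that differ.
Clec10a-202 (coding bases 469 to 711): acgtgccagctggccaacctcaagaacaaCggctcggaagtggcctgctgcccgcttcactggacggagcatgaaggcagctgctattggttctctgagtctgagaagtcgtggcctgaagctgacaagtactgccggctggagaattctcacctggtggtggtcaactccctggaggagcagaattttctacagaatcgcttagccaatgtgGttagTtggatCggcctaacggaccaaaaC
Mgl2-201 (coding bases 517 to 759): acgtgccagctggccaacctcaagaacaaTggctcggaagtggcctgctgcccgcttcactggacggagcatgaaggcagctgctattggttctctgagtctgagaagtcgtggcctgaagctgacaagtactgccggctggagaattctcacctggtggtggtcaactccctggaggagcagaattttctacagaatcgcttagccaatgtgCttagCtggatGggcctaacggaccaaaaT
Mgl2, itself a cDC2 marker, received 11 and 18 reads in saline and 7 and 22 in vanoxerine, and was not called (edgeR adjusted p = 0.929). Clec10a received 317 and 391 reads in saline and 1441 and 1429 in vanoxerine. For the other members the share of 31-base words found in other genes was between 0.0% and 4.63%.

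Cd209a encodes a mouse relative of the human lectin DC-SIGN, expressed by cDC2 and monocyte-derived cells (chromosome 8, 3743397 to 3748984, reverse strand). It was at 0 and 0.351 CPM in saline and at 0.809 and 0.668 CPM in vanoxerine. In reads these are 0 and 25 against 56 and 44, and the 0 of saline replicate 1 allows a level of up to 0.0393 CPM, from 3 reads. The groups did not overlap, but saline replicate 2 was about as far from saline replicate 1 as from vanoxerine replicate 2. The log2 fold change of 2.07 ± 1.38 was not called (edgeR adjusted p = 0.296). It was 1.07 without saline replicate 1, and without saline replicate 2, where saline rests on the library with 0 reads, Cd209a was called higher (adjusted p = 1.43e-05).

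Other cDC2 markers were called higher in 7 of 11 and lower in 0, at a median of 0.77 on the log2 scale. Sirpa, the gene of an inhibitory receptor for CD47, went from 114 and 119.8 CPM to 490.2 and 483 CPM (2.06 ± 0.047). Itgam, which encodes CD11b, rose by 1.88 ± 0.048, and the lectin gene Clec12a by 2.80 ± 0.051. Macrophages and monocytes also express these 3 genes. The 4 genes not called were Mgl2, Clec4a4, Cd209d and Dtx1, all with fewer than 1 CPM in every library, and this count was looked at after the values were seen. None of them rose clearly. Mgl2 changed by 0.13 ± 0.92 on the log2 scale, and Clec4a4 (-0.42 ± 0.65), Cd209d (-0.56 ± 0.69) and Dtx1 (-1.27 ± 0.55) had lower means in vanoxerine.

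Ccr7, Ccl22 and Fscn1 mark mature, migratory dendritic cells. Ccr7 encodes the receptor for the lymph node chemokines CCL19 and CCL21 (chromosome 11, 99144196 to 99155077, reverse strand). It was at 7.93 and 10.4 CPM in saline and at 26.2 and 25.5 CPM in vanoxerine. The groups were well separated and the vanoxerine libraries nearly equal. Ccr7 rose by 1.49 ± 0.14 on the log2 scale, or 2.82-fold (edgeR adjusted p = 6.61e-04), on a single annotated transcript with 606 and 742 reads in saline and 1811 and 1681 in vanoxerine, and it stayed called under each of 17 alternatives. Of its ligand genes, Ccl19 had 0 and 9 reads in saline and 12 and 0 in vanoxerine, and Ccl21a, which has near-identical copies in the mouse genome, had 0 in every library. Ackr4, which encodes a scavenging receptor for the same ligands, also had 0 reads in every library.

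Ccl22 encodes a chemokine that draws cells bearing CCR4, among them regulatory T cells (chromosome 8, 94745590 to 94751699, forward strand). It was at 1.03 and 1.25 CPM in saline and at 3.77 and 4.22 CPM in vanoxerine. Both vanoxerine libraries were about equally far above the saline ones. Ccl22 rose by 1.81 ± 0.24 on the log2 scale, or 3.50-fold (edgeR adjusted p = 0.00259). The call held when any 1 library was left out, and was lost with the length offset (0.61, adjusted p = 0.522), with log2(TPM + 1) (0.52, adjusted p = 0.30) and with log2(TPM + 0.1) (0.95, adjusted p = 0.312). In saline replicate 1, Salmon gave 21.3 of the 79 reads to Ccl22-202, a processed transcript of 409 bases, which made up 1.36 of the 1.66 TPM of the gene there and 0 in each other library. The protein-coding transcript Ccl22-201 alone was at 0.299 and 0.480 TPM in saline and at 1.76 and 1.95 TPM in vanoxerine. Ccr4, the gene of its receptor, was at 0.144 and 0.435 CPM in saline and 0.303 and 0.501 CPM in vanoxerine and was not called. Ccl17, whose product shares that receptor, had 0 and 2 reads in saline and 14 and 3 in vanoxerine, too few to be tested.

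Fscn1 encodes fascin, which bundles actin in the dendrites of mature dendritic cells (chromosome 5, 142960343 to 142973185, forward strand). It was at 251 and 254 CPM in saline and at 209 and 221 CPM in vanoxerine, and so was the one member whose vanoxerine libraries both lay below the saline ones. Fscn1 fell by 0.23 ± 0.048 on the log2 scale (edgeR adjusted p = 0.0130), a call that was lost with the length offset (-0.13, adjusted p = 0.245) and whose sign turned with log2(TPM + 1), at 0.11 (adjusted p = 0.364). It was also lost without vanoxerine replicate 1 (-0.18, adjusted p = 0.243) and without vanoxerine replicate 2 (-0.26, adjusted p = 0.0892). Per length it was at 129 and 113.5 TPM in saline and 129 and 132 TPM in vanoxerine, so that the groups overlapped on that scale.

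Other genes of mature, migratory or regulatory dendritic cells were called higher in 14 of 21 tested and lower in 0, at a median of 0.81 on the log2 scale. Irf4 and Relb each stand in 2 of these lists. Cxcl16, a chemokine gene, went from 25.2 and 25.3 CPM to 113.7 and 109.8 CPM (2.15 ± 0.051). Adam8, the gene of a membrane protease, rose by 1.54 ± 0.045, and Cd83, a maturation marker, by 1.70 ± 0.064. Adam8 was at 233.4 and 246.1 CPM in saline and at 697.2 and 693.7 CPM in vanoxerine. Cxcl16, Adam8 and Cd83 stood well above Ccl22 in every library, both in CPM and per length in TPM. How much of their change came from mature dendritic cells or from other cells was not tested. The 7 that were not called were Relb, Cd200, Fas, Aldh1a2, Socs1, Socs2 and Il15ra. Il12b, which encodes the p40 chain of interleukin-12 and was named after its value was seen, went from 0.380 and 0.281 CPM to 3.32 and 2.60 CPM (3.15 ± 0.35, edgeR adjusted p = 0.00116).

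Per length, the 10 genes spanned a wide range. In saline, Fscn1 was highest at 121 ± 11.01 TPM (mean ± SD, n = 2), followed by Batf3 (4.09 ± 1.01 TPM), Ccr7 (3.99 ± 0.661 TPM) and Clec10a (3.23 ± 1.04 TPM), whose values overlapped between neighbours. Zbtb46 (1.75 ± 0.0495 TPM), Ccl22 (1.07 ± 0.834 TPM) and Flt3 (0.273 ± 0.0205 TPM) came next. Clec9a (0.118 ± 0.0833 TPM), Cd209a (0.113 ± 0.159 TPM) and Xcr1 (0.0370 ± 0.0168 TPM) were lowest, and Cd209a overlapped both others. In vanoxerine the order was Fscn1 (131 ± 2.46 TPM), Clec10a (16.0 ± 1.62 TPM), Ccr7 (13.4 ± 0.309 TPM), Batf3 (10.2 ± 0.316 TPM), Zbtb46 (2.01 ± 0.111 TPM), Ccl22 (1.855 ± 0.138 TPM), Clec9a (1.49 ± 0.210 TPM), Flt3 (1.05 ± 0.122 TPM), Xcr1 (0.630 ± 0.00318 TPM) and Cd209a (0.568 ± 0.0793 TPM). Of the neighbours in that order only Zbtb46 and Ccl22 overlapped. 

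The authors' deposited table gave adjusted p under 0.05 for 6 of the 10 genes, all higher in vanoxerine, where 35.2% of its 16621 genes with an adjusted p were called, 20.3% higher and 14.8% lower. Those 6 were Flt3, Xcr1, Clec9a, Batf3, Ccr7 and Clec10a. In the authors' deposited table the log2 fold change was 3.67 ± 0.61 (SE) for Xcr1, 3.15 ± 0.70 for Clec9a and 2.0 ± 0.29 for Clec10a. The authors' deposited table had Ccl22 at 0.20 ± 0.40 (adjusted p = 0.518) and Fscn1 at -0.12 ± 0.090 (adjusted p = 0.314). Which libraries entered it is not given in the sources used here, since its per-library columns carry names that match none of the 4 samples.

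**Figure D3:**
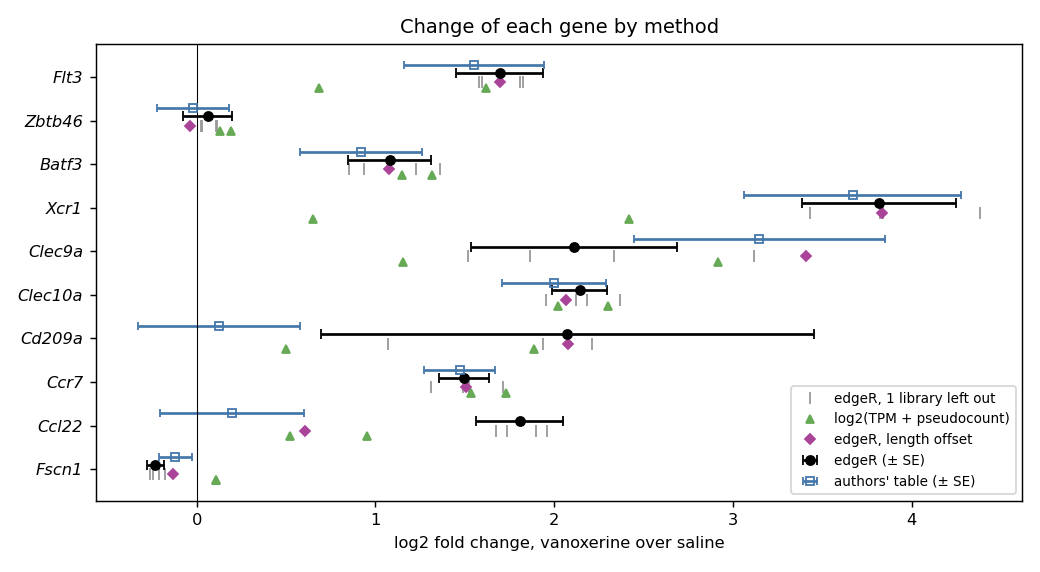
Log2 fold change of vanoxerine over saline for each of the 10 genes, from edgeR with its SE, from the authors' deposited table with its SE, and under alternative processing, with 0 marked by a line. Every gene but Fscn1 and Zbtb46 lies to the right of 0 under every setting shown. In the authors' deposited table the SEs of Ccl22 (0.20 ± 0.40) and Cd209a (0.13 ± 0.45) reach across 0. Ccl22 is at 1.81 with edgeR and at 0.61 with the length offset. Cd209a without saline replicate 2, where saline has 0 reads, is left off.

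Markers of other cell types moved between the same libraries. Macrophage markers were higher in 12 of 12, at a median of 2.50 on the log2 scale, and their summed level was 884.5 and 938 CPM in saline and 4919 and 4944 CPM in vanoxerine. Within that list C1qc went from 78.4 and 80.2 CPM to 681.5 and 697.5 CPM, C1qa rose by 3.16 ± 0.045 and C1qb by 2.76 ± 0.054, all 3 of them complement genes. Mast cell markers were higher in 5 of 6, with a median of 3.18 and a summed level of 24.5 and 24.8 CPM against 105.7 and 104 CPM, Cma1 by 2.77 ± 0.17, Kit by 1.12 ± 0.071 and Tpsb2 by 3.27 ± 0.21. Monocyte markers went both ways, 3 higher and 3 lower of 8, with a median of -2.6e-04 and a summed level of 2188 and 2200.0 CPM in saline and 1809 and 1808 CPM in vanoxerine. Fn1 fell by 0.62 ± 0.037 and Ly6c2 by 0.32 ± 0.048, and F13a1 rose by 0.46 ± 0.066. How much of the change of Clec10a, Ccl22, Flt3 or the other members came from macrophages, monocytes or mast cells was not tested.

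Calls in the lymphoid marker lists stand against 21.0% higher and 15.9% lower among all genes tested. B cell markers were higher in 2 of 7 and lower in 1, at a summed level of 26.9 and 25.4 CPM in saline and 34.0 and 32.9 CPM in vanoxerine, with Blk (3.55 ± 0.60) and Cd79b (2.86 ± 0.15) higher and Pax5 (-0.42 ± 0.094) lower. T cell markers were higher in 3 of 8 and lower in 1, at 327 and 323 CPM against 366.5 and 354 CPM. Among them Il7r (1.1 ± 0.089), Tcf7 (0.71 ± 0.088) and Cd28 (0.69 ± 0.080) rose, and these are high in naive or memory T cells, which also carry Ccr7. Of the T cell receptor complex genes, named after their values were seen, Cd3g fell by 0.31 ± 0.066, and Cd3d (-0.19 ± 0.10), Cd3e (-0.15 ± 0.062) and Trac (0.020 ± 0.079) were not called. Plasmacytoid dendritic cell markers were higher in 2 of 8 and lower in 1, with Siglech (0.79 ± 0.23) and Tcf4 (0.58 ± 0.064) higher and Cox6a2 (-1.43 ± 0.085) lower, at a summed level of 62.9 and 60.2 CPM against 64.7 and 63.65 CPM. The part of B, T and plasmacytoid cells in the change of Ccr7 and Flt3 was not tested.

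Of the stromal and epithelial lists, endothelial markers were lower in 4 of 7 and higher in 1, with a median of -1.05 and a summed level of 139 and 138 CPM against 142 and 144 CPM. Plvap fell by 2.02 ± 0.097 and Cdh5 by 1.05 ± 0.085, and Pecam1 rose by 0.87 ± 0.048. Fibroblast markers were lower in 7 of 7, with a median of -0.93, at 512 and 508 CPM against 264 and 262.5 CPM, among them Col3a1 (-1.09 ± 0.048), Dcn (-0.93 ± 0.050) and Col1a1 (-0.69 ± 0.052). Epithelial markers were higher in 3 of 6 tested, with a median of 1.06, at 16.3 and 18.9 CPM against 35.3 and 37.0 CPM, namely Epcam (1.025 ± 0.23), Krt19 (1.69 ± 0.48) and Cdh1 (1.09 ± 0.11). No marker of these lists was at 0 reads in all 4 libraries. Their part in the values of Zbtb46 and Fscn1 was not tested.

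**Figure D4:**
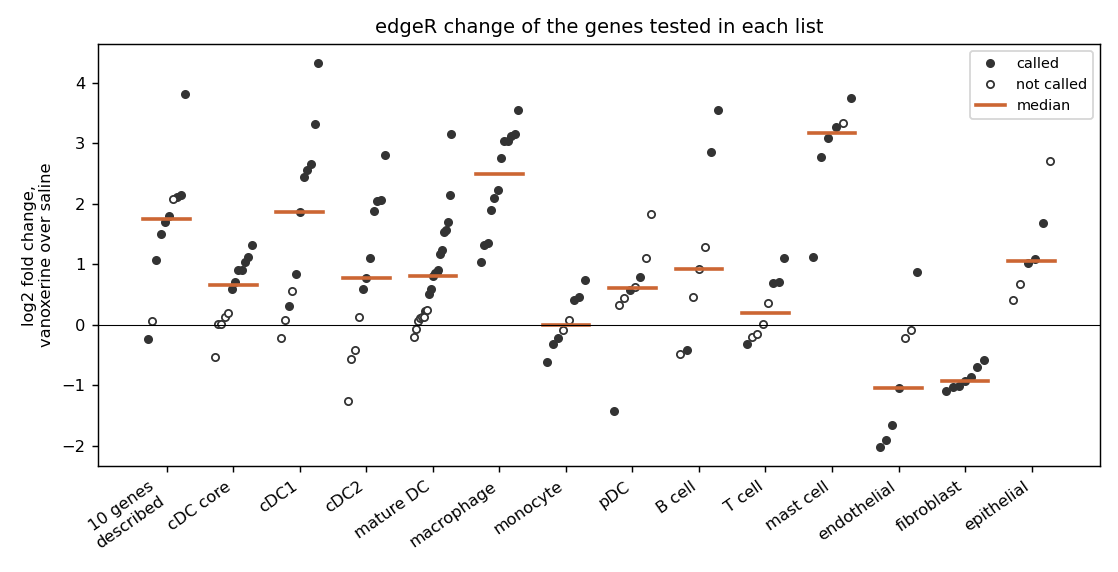
Log2 fold change (edgeR, vanoxerine over saline) of every tested gene in the 10-gene list and in 13 lists of related or other cell types, filled where called and open where not, with a line at each median. The median is 1.75 for the 10 genes, 1.87 for cDC1 markers, 2.50 for macrophage markers and -0.93 for fibroblast markers.

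Genes with the most similar pattern over the 4 libraries were sought among 11621 genes, by the Euclidean distance between log2 CPM values centred on each gene's mean. The nearest to Clec10a was Fgd2 (distance 0.0376), at 9.04 and 11.6 CPM in saline and 44.3 and 46.8 CPM in vanoxerine. The nearest to Xcr1 was the mast cell protease gene Cpa3 (0.147), at 1.296 and 0.800 CPM against 13.6 and 14.8 CPM. Ntpcr was nearest to both Flt3 (0.0817) and Ccl22 (0.0855), Lifr to Ccr7 (0.0479), and Tnfsfm13 to Batf3 (0.118). Clec9a and Cd209a had no close neighbour among those 11621 genes, with Zdhhc23 at 0.572 and Pde2a at 0.720. For Zbtb46 and Fscn1, which differed little between the libraries, Nol8 (0.00813) and Immp1l (0.00827) were nearest, where 4767 and 4119 genes lay within 0.3 of them.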

How the data were processed

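The 4 libraries were RNA-seq of whole MC38 tumours, made with the TruSeq RNA v2 kit per the labels' protocols. The submitters' processing notes name fastp, Salmon 1.3.0, DESeq2 and GRCm38. Which annotation, settings and strand mode they used is not given in the sources used here. For each library the authors deposited estimated counts (reads that Salmon assigned to each of 140992 transcripts, not normalized), TPM (scaled to effective length and to a constant total) and the length and effective length of each transcript, a further value per transcript. The authors' deposited table of the comparison holds, per the file headers, the log2 fold change and its SE, and the p-value raw and adjusted. Its 4 columns of per-library values match no sample and were not used.

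Transcripts were assigned to genes with GENCODE M21 (GRCm38), 139791 of 140992 having a gene there, which held 99.56% to 99.63% of the reads. Estimated counts and TPM were summed per gene, and counts were rounded to whole numbers. edgeR 4.0.16 under R 4.3.3 gave the main test, run as the quasi-likelihood test without a block on 18758 genes, which passed filterByExpr at a count of 10 and a total of 15, with TMM scaling. SEs were taken from the F statistic. The test was checked on simulated counts. Salmon divides ambiguous reads by estimate, so depth overstates the precision of genes with close copies. A level of up to 3 reads is allowed by a count of 0, which covers counting error only.

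The 10 genes and the lists were chosen with earlier results of these data known. The genes named are the 10, the 8 ligand and receptor partners, the 3 genes with the smallest p of each other list, and the most similar gene of each member whose mean log2 CPM reaches 1. Other names were chosen after their values were seen. The alternatives tried were DESeq2 1.42.0, limma-voom (limma 3.58.1), limma-trend on log2(TPM + 1) or log2(TPM + 0.1), a length offset, 3 other scalings, 2 other filters, a threshold of 0.1, coding genes alone, a block for the replicate number, and each library left out in turn, with its lone partner taken to vary as the other group does.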

Additional observations from a re-analysis of the deposited data

How the results depend on the processing

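Of the 10 genes, 8 were called with median-of-ratios, upper-quartile and library-total scaling, without a low-count filter, at a mean CPM of at least 1, at an adjusted p under 0.1, with DESeq2, with limma-voom and with protein-coding genes only. The share of all genes called in those 9 settings ran from 24.1% without a low-count filter to 50.6% at a mean CPM of at least 1, so the same count stands against different backgrounds. Of the 10 genes, 6 were called with the length offset and with either pseudocount on TPM. With 1 library left out the count ranged from 5 to 9, the lowest without vanoxerine replicate 2. Over all genes the count of calls was 4309 with the length offset and 3107 to 9708 with 1 library left out, and over the related and other cell type lists it was 63 to 98 with 1 library left out, against 83. Flt3, Xcr1, Ccr7 and Clec10a kept their call under all 17 alternatives, with log2 fold changes of 0.68 to 1.83, 0.65 to 4.38, 1.31 to 1.73 and 1.95 to 2.37. The low ends for Flt3 and Xcr1 are those with log2(TPM + 1), which understates the change of low genes. Fscn1 turned its sign with log2(TPM + 1) (0.11) and log2(TPM + 0.1) (0.11), and Zbtb46 with the length offset (-0.035) and upper-quartile factors (-0.072). The cause was not tested. The median of all genes moved to -0.144 with upper-quartile factors and to 0.126 and 0.213 with the 2 TPM settings, and the share of calls that were higher moved with it, with 2895 higher and 4525 lower under upper-quartile factors and 4094 higher and 870 lower with log2(TPM + 1). With the replicate number as a block, 8 of the 10 genes and 6391 genes in all were called. Same-numbered libraries did not deviate together (correlation -0.0129 over 9871 genes). That correlation rests on a single difference between libraries in each group, so it cannot settle whether the numbers pair the samples. Depth limits Xcr1, Clec9a and Cd209a most, with 0 to 48 reads in the saline libraries.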
